A study of Mus musculus with 24 samples.

Results

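The genes described here encode the nuclear-encoded subunits of the mitochondrial respiratory chain and ATP synthase, together with the electron carrier cytochrome c, in activated mouse CD8 T cells. They were chosen by gene symbol: symbols starting with Nduf followed by a, b, c, s or v and a number, Sdha to Sdhd, symbols starting with Uqcr, Cyc1, Cycs, Cox4 to Cox8 and Atp5, without genes named as pseudogenes and with a mean of at least 1 CPM (counts scaled to a common library total) over the 12 RNA-seq libraries. The rule gave 80 of 55401 genes: 37 of complex I, 4 of complex II, 9 of complex III, cytochrome c (Cycs), 12 of complex IV and 17 of complex V. All 80 also passed the filter on low counts and were tested. Just inside the minimum of 1 CPM stood Cox6b2 with a mean of 1.26 CPM and Atp5s with 2.59 CPM, and just outside it Cox6a2 with 0.612, Cox7a1 with 0.341 and Cox4i2 with 0.213 CPM. Ndufb1-ps, with a mean of 33.5 CPM, was left out because of its name. Ndufa4 is counted under complex I by its symbol, although its protein is known as a subunit of complex IV.

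The respiratory chain sits in the inner mitochondrial membrane. Complexes I and II pass electrons from NADH and succinate to ubiquinone, complex III passes them on to cytochrome c, and complex IV passes them to oxygen, while the protons pumped on the way drive ATP synthase, complex V. Each complex except II also holds subunits made from mitochondrial DNA, so its assembly needs products of both genomes. Of the complex I subunits, the core ones carry the flavin and iron-sulphur clusters or take part in pumping, and the accessory ones surround and stabilise them. Lactate enters metabolism by oxidation to pyruvate, which mitochondria oxidise further, and oxygen is the substrate of complex IV.

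The CD8 T cells came from spleens and lymph nodes of C57BL/6J mice, were purified with magnetic beads and were activated in culture with anti-CD28 and interleukin 2 for 3 days. From day 2 to day 3 they received 20 mM sodium chloride (NaCl, the osmotic control), 20 mM sodium pyruvate, 20 mM sodium lactate, or sodium lactate together with Oxyrase, a preparation of bacterial membranes whose enzymes use up dissolved oxygen. Each group had 3 RNA-seq and 3 ATAC-seq libraries (24 in all). ATAC-seq reads accessible chromatin by inserting adapters into open DNA. Oxyrase was given only on top of lactate, so its effect was read against lactate alone, and no oxygen tension or Oxyrase dose is given in the sources used here. The labels do not say whether replicates came from separate mice or cultures, so p-values measure only the spread between these libraries, which may be technical.

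The promoters of 5 genes named in the results below are shown here, as RefSeq sequence of GRCm38.p6 (mm10). Each ends at the last base before the start site and is read along the gene's own strand. All 5 hold a marked motif, which is not so for all subunit genes. Capitals mark letter matches to the motif of nuclear respiratory factor 1 (NRF1; the letters GCGCA, any base, GCGC), to the ETS motif CCGGAAG bound by GABPA, or to the core hypoxia response element ACGTG, on either strand. Cox6a1, Sdhd and Atp5k fell in transcript under pyruvate or with Oxyrase, and Ndufv1 and Ndufa7 had the deepest falls in accessibility at their start site. The windows are chr5:115348959-115349138 (minus strand) for Cox6a1, chr9:50603850-50603969 (minus) for Sdhd, chr5:108434400-108434519 (minus) for Atp5k, chr19:4012756-4012935 (minus) for Ndufv1 and chr17:33824452-33824571 (plus) for Ndufa7.
Cox6a1: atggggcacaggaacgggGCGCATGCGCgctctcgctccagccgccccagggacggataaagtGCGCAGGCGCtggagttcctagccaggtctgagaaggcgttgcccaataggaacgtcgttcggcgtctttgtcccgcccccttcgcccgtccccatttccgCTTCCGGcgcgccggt
Sdhd: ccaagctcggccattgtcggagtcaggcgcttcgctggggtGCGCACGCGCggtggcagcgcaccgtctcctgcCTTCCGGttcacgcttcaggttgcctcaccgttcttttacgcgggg
Atp5k: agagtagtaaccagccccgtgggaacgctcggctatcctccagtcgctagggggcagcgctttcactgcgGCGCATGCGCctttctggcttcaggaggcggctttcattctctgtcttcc
Ndufv1: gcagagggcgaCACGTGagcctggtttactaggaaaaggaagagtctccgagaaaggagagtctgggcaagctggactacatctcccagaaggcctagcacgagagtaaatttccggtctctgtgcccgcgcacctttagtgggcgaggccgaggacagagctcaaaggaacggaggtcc
Ndufa7: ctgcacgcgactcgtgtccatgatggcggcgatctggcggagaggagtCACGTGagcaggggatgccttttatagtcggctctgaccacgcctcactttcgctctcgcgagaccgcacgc
Cox6a1 held NRF1 matches starting 162 and 117 bases before the start site and an ETS match at 16 bases. Sdhd held an NRF1 match at 79 and an ETS match at 46, and Atp5k an NRF1 match at 50. Other genes that fell with Oxyrase lacked the NRF1 letters: Uqcrh, Uqcr11 and Cox7b held no NRF1 match, and Ndufa4 none of the marked motifs. Uqcrh and Uqcr11 did hold an ETS match each, and Uqcr11 also the ACGTG letters. In Ndufv1 and Ndufa7 the ACGTG letters lie in CACGTG, which reads the same on both strands, 169 and 72 bases before the start site. The ACGTG letters were as common in subunit windows (25.4%) as in those of all genes tested (25.6%). Which factor binds them here was not tested.

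RNA libraries held 26.04 to 39.64 M counts and ATAC libraries 25.31 to 37.07 M counts (M, mega). The 80 genes took 0.821% to 0.923% of all RNA counts of a library. T cell identity was checked on 8 T cell markers, whose summed level was 2286 to 2321 CPM in NaCl, 2053 to 2117 in pyruvate, 2121 to 2216 in lactate and 1570 to 1651 with Oxyrase. Markers of myeloid, platelet and erythroid cells were lower. The 7 myeloid genes summed to 0.211 to 1.45 CPM (1.02 to 1.45 with Oxyrase). The 2 platelet genes were at 0 in every library, and 3 erythroid genes reached 0.282 CPM at most. The 5 B cell genes, mostly Ighm, summed to 64.9 to 76.5 CPM with Oxyrase and to 147 to 213 CPM elsewhere, the 3 natural killer genes, mostly Nkg7, to 237 to 380 CPM (322 to 380 with Oxyrase), and the CD4 T cell genes Cd4 and Foxp3 to 1.08 to 1.37 CPM with Oxyrase and 2.62 to 5.28 elsewhere. As single genes, Nkg7 (mean of 297 CPM over the 12 libraries) and Ighm (153 CPM) were not below all T cell markers, such as Cd3d (150 CPM). With Oxyrase added to lactate, 5 of the 8 T cell markers fell (62.5%) and 1 rose (12.5%), beside 23.6% lower and 26.1% higher among all genes tested. The part of these marker levels in the results below was not tested. CPM values are shares of a library, so a fall of a transcript, fewer cells of a type and less RNA per cell cannot be told apart.

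Summed over all 80 genes, the subunit transcripts were lower in the pyruvate and in the lactate with Oxyrase libraries than in NaCl, and lactate alone stood near NaCl. The sum, in CPM scaled by TMM (a normalisation to a common trimmed mean), was 9018, 9042 and 8813 in the NaCl libraries and 8888, 8904 and 8957 in lactate. It was 8604, 8234 and 8634 in pyruvate and 8386, 8441 and 8777 in lactate with Oxyrase. Every pyruvate and every Oxyrase library thus lay below every NaCl and every lactate library. As a share of the NaCl mean, the pyruvate mean was 94.8%, the lactate mean 99.5% and the mean with Oxyrase 95.3%. In pyruvate the means of the 5 complexes lay between 93.1% (complex III) and 95.3% (complex V) of NaCl, and Cycs stood at 104%. With Oxyrase the sums ranged from 92.5% in complex II and 93.2% in complex IV to 98.7% in complex III and 116% for Cycs alone. These sums are weighted by the genes with most counts and carry no test.

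**Figure D1:**
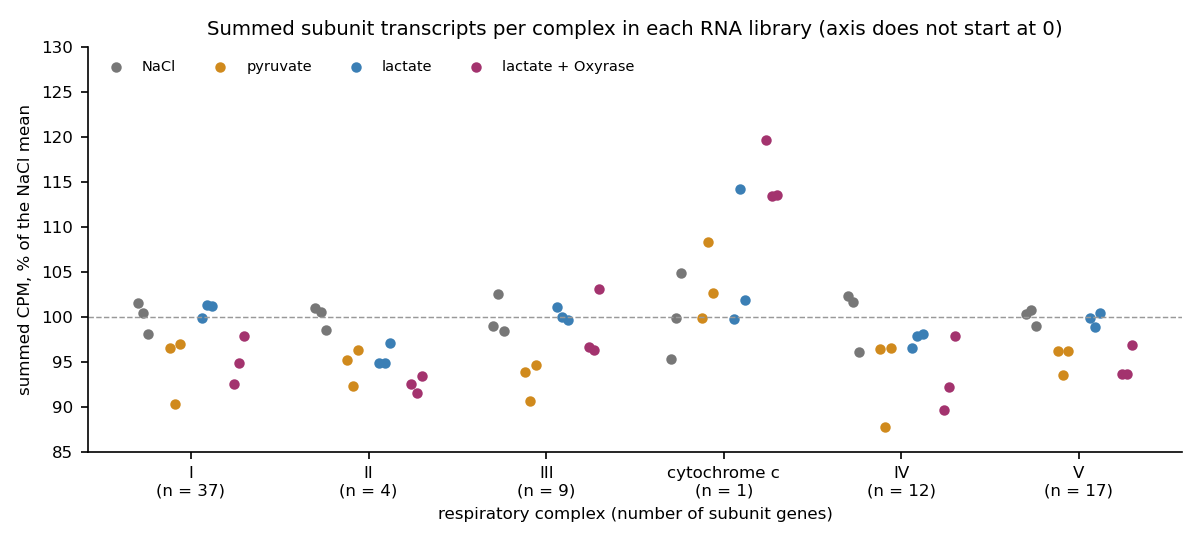
Summed TMM-scaled CPM of the subunit genes of each complex in each RNA library, as a percent of the mean of the 3 NaCl libraries; the axis starts at 85%, not at 0. The 3 pyruvate libraries lie below the 3 NaCl libraries in complexes I, II, III and V, and the libraries with Oxyrase stand above all NaCl libraries for cytochrome c, as does 1 of them for complex III.

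Adding Oxyrase to lactate changed 39 of the 80 subunit transcripts, 33 lower and 6 higher, against a background of 49.7% of all 14749 genes tested (26.1% higher and 23.6% lower). Among 8615 genes with a mean of at least 10 CPM, where 77 of the 80 lie, 61.8% passed (30.2% higher and 31.5% lower). The share of subunit genes that passed was thus no larger than that of all genes, and the median log2 fold change was -0.09 over the 80 genes and 0.00 over all genes. The falls lay in accessory subunits of complex I (13), in Sdhd of complex II, and in complexes III (3), IV (6) and V (10), and the rises in 6 genes: Uqcrq, Cox7a2l, Ndufs8, Ndufs3, Cycs and Cox4i1. DESeq2 gave 34 lower and 6 higher.

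In complex I, 13 of 30 accessory subunits fell with Oxyrase and 0 rose, while of the 7 core subunits 0 fell and 2 rose (edgeR; at an unadjusted p under 0.05 the accessory subunits gave 15 lower and 0 higher and the core ones 0 lower and 2 higher). Against NaCl, lactate with Oxyrase lowered 2 of the 7 core and 12 of the 30 accessory subunits, and raised 1 of each. The difference between core and accessory subunits was not tested. Ndufs8, a core subunit that carries iron-sulphur clusters, stood at 46.8, 48.4 and 46.7 CPM in lactate and 56.3, 57.5 and 62.4 CPM with Oxyrase. All 3 Oxyrase libraries were above all 9 others, and the log2 fold change was 0.31 ± 0.05 (SE; edgeR adjusted p = 8.11e-05). Ndufs3, another core subunit, rose by 0.19 ± 0.06 (edgeR adjusted p = 0.0133), a call that was lost without lactate 2 or without Oxyrase 3. Ndufv1 and Ndufs1, core subunits with the flavin or clusters, did not pass: Ndufv1, which binds NADH, had -0.04 (95% interval -0.14 to 0.05) and Ndufs1 -0.06 (-0.14 to 0.01).

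Among the accessory and associated subunits, Ndufa4 fell most. It stood at 84.5, 90.3 and 86.6 CPM in lactate and at 66.4, 66.4 and 72.5 CPM with Oxyrase. No Oxyrase library reached any of the other 9, and the log2 fold change was -0.35 ± 0.05 (edgeR adjusted p = 5.43e-06). Ndufa6, which carries the acyl carrier protein of complex I, had 25.9, 29.3 and 26.8 CPM in lactate and 20.6, 21.9 and 23.0 with Oxyrase (-0.32 ± 0.07, edgeR adjusted p = 0.000541). The membrane arm subunits Ndufc1 (-0.31 ± 0.10) and Ndufb2 (-0.29 ± 0.12) fell with wider errors, and the call of Ndufb2 held in 6 of 11 alternatives. The remaining 9 that fell lay between -0.17 (Ndufa10) and -0.28 (Ndufa5).

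In complex II, the membrane anchor Sdhd fell with Oxyrase while the flavoprotein Sdha and the anchor Sdhc did not pass. Sdhd was at 116, 113 and 109.9 CPM in lactate and 83.6, 84.7 and 92.3 CPM with Oxyrase. Each Oxyrase library was below every one of the other 9, with a log2 fold change of -0.38 ± 0.05 (edgeR adjusted p = 9.41e-06). The catalytic subunit Sdha had 0.07 (95% interval 0.00 to 0.13; edgeR adjusted p = 0.085), the iron-sulphur subunit Sdhb -0.10 (-0.19 to 0.00; adjusted p = 0.0833) and Sdhc 0.02 (-0.06 to 0.10).

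Complex III split by subunit. Uqcrh, the hinge protein that helps cytochrome c dock, was at 110.2, 116 and 109 CPM in lactate and 77.5, 79.9 and 82.7 with Oxyrase (log2 fold change -0.48 ± 0.04, edgeR adjusted p = 1.68e-08). The small subunit Uqcr11 went from 33.9, 36.3 and 34.9 to 24.2, 25.1 and 25.5 CPM (-0.49 ± 0.06, edgeR adjusted p = 3.01e-06), and Uqcr10 fell by 0.22 ± 0.07. In the opposite direction, the small subunit Uqcrq rose from 70.1, 68.0 and 71.3 to 86.2, 91.0 and 96.3 CPM (0.39 ± 0.06, edgeR adjusted p = 1.89e-05). For Uqcrh and Uqcr11 the Oxyrase libraries lay below all 9 others, and for Uqcrq above all 9. The gene models of Uqcrh and Uqcrq overlap Gm12854 and Gdf9. The library kit does not mark strand, so reads in the shared parts cannot be assigned with certainty. The same limit holds for all 24 of the 80 subunit genes whose model overlaps another gene. The subunits that carry haem or the Rieske cluster and the core proteins did not pass: Cyc1 had -0.07 (95% interval -0.18 to 0.04), Uqcrfs1 0.00 (-0.10 to 0.09), Uqcrc1 0.05 (-0.04 to 0.13) and Uqcrc2 0.07 (0.00 to 0.14). Cycs itself rose by 0.13 ± 0.05 (edgeR adjusted p = 0.0365), from 168, 192 and 172 CPM to 202, 191 and 191. Its groups overlapped, and the call held in 6 of 11 alternatives.

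In complex IV, 6 of 12 subunits fell with Oxyrase and 2 rose. Cox7b fell most, from 92.7, 95.6 and 92.1 to 71.4, 70.1 and 77.2 CPM (-0.36 ± 0.05, edgeR adjusted p = 1.99e-05), and Cox6c (-0.25 ± 0.05), Cox5a (-0.23 ± 0.05), Cox8a (-0.19 ± 0.06), Cox7a2 (-0.18 ± 0.06) and Cox6b1 (-0.15 ± 0.05) fell by less. Cox7a2l rose from 90.7, 91.9 and 94.0 to 113, 117 and 119 CPM. All 3 Oxyrase libraries were above the other 9, with a log2 fold change of 0.33 ± 0.05 (edgeR adjusted p = 1.06e-05). Its relative Cox7a2 thus moved in the other direction, with a call that held in 7 of 11 alternatives. The calls of Cox8a and Cox6b1 held in 8 and 9. The gene model of Cox7a2 overlaps Gm51685 and Tmem30a. Cox4i1, the regulatory subunit that binds ATP, rose by 0.12 ± 0.04 (edgeR adjusted p = 0.0162), a call lost without Oxyrase 3.

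In complex V, 10 of 17 subunits fell with Oxyrase and 0 rose (edgeR; 10 and 0 at an unadjusted p under 0.05). The falls were largest in small subunits. Atp5k, subunit e of the membrane part where ATP synthase forms dimers, went from 32.8, 35.5 and 34.6 CPM in lactate to 19.5, 23.4 and 24.1 CPM, below the other 9 libraries (log2 fold change -0.62 ± 0.09, edgeR adjusted p = 1.37e-05). Atp5mpl, a small proteolipid of the same part, went from 40.5, 42.9 and 43.1 to 26.4, 28.1 and 31.0 CPM (-0.56 ± 0.06, edgeR adjusted p = 4.56e-07). Atp5e, the epsilon subunit of the central stalk, fell by 0.35 ± 0.11 (edgeR adjusted p = 0.0132), with a call lost without Oxyrase 1. The catalytic head did not move with them: Atp5a1 (alpha) had -0.01 (95% interval -0.08 to 0.06) and Atp5b (beta) 0.00 (-0.07 to 0.06). Of the 3 genes for subunit c, which makes the rotor ring, Atp5g3 fell by 0.29 ± 0.05 (edgeR adjusted p = 0.000148), and Atp5g1 (-0.06, interval -0.17 to 0.06) and Atp5g2 (0.26, interval -0.16 to 0.68) did not pass.

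**Figure D2:**
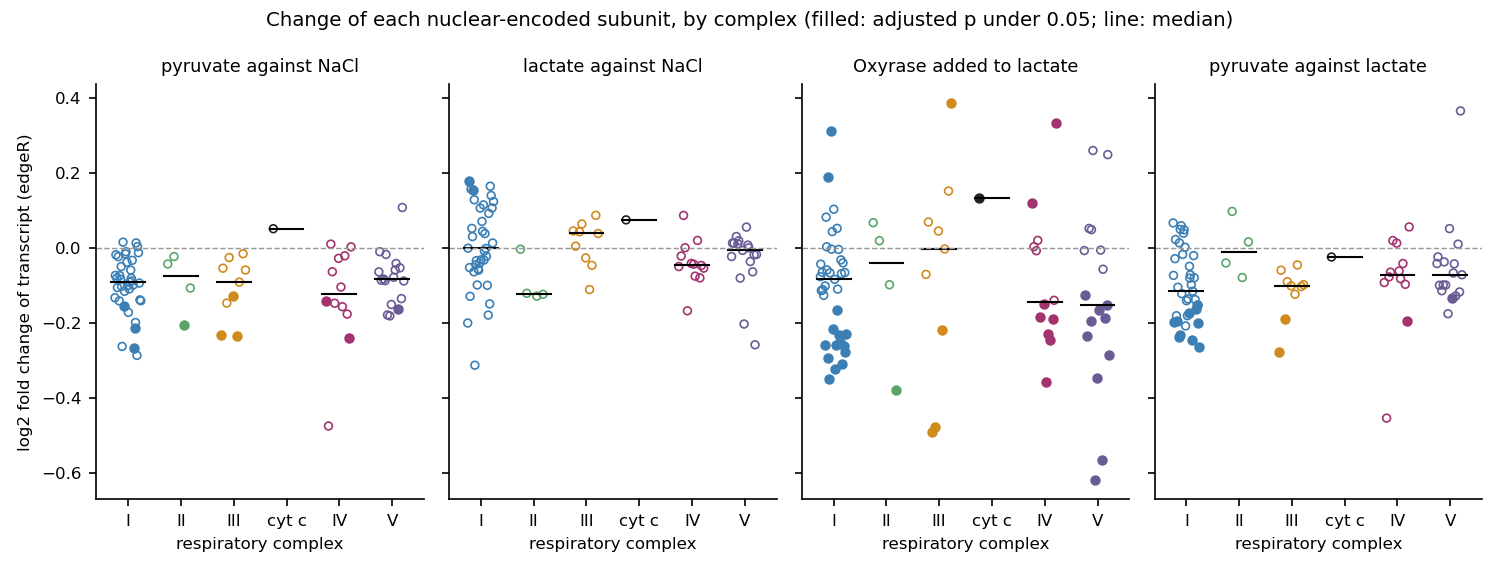
Log2 fold change of each of the 80 subunit transcripts (points, one per gene) by complex in 4 comparisons, with the median of each complex as a line; filled points passed an adjusted p under 0.05 in edgeR. With Oxyrase 33 points are filled below 0 and 6 above, whereas pyruvate against NaCl and pyruvate against lactate have filled points only below 0 (10 and 14).

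**Figure D3:**
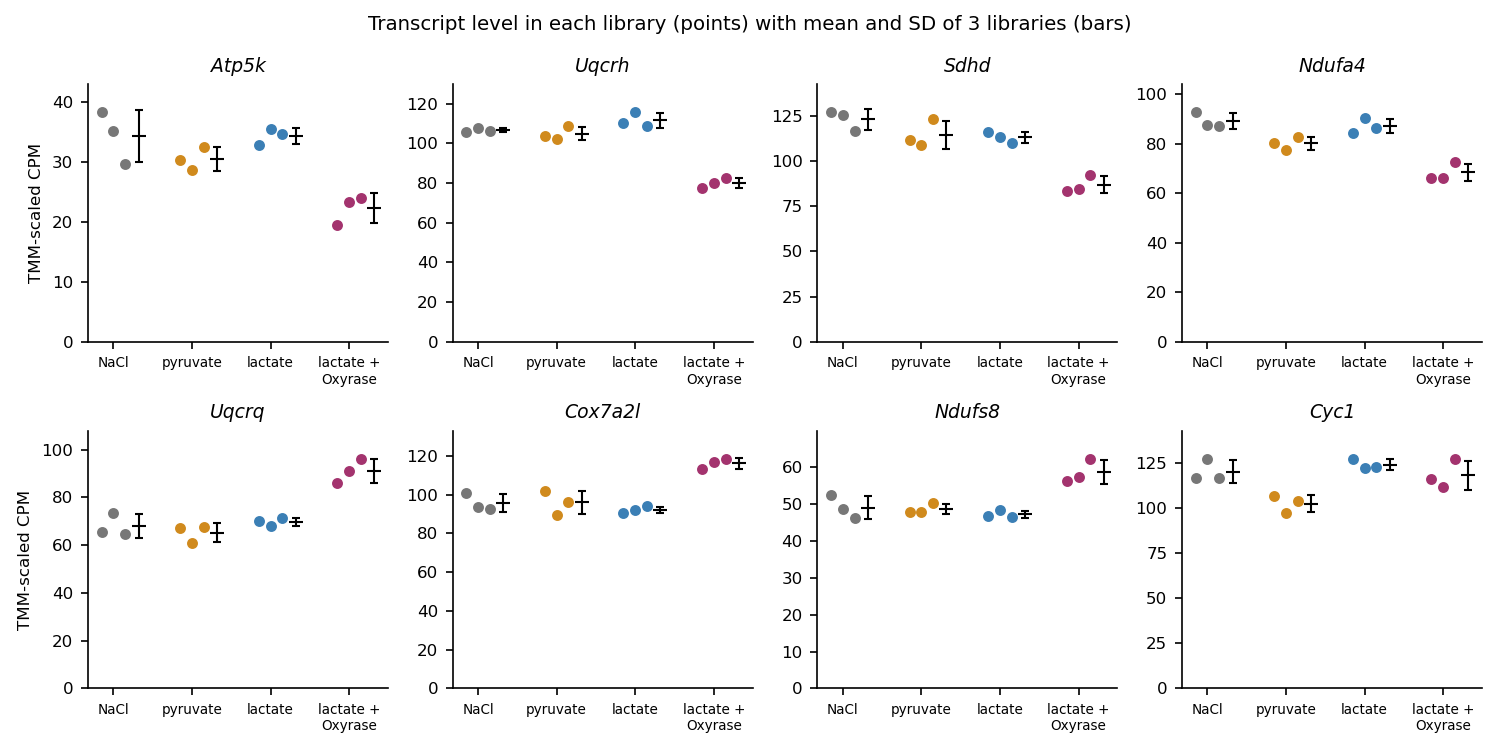
TMM-scaled CPM of 8 subunit transcripts in each RNA library (points), with the mean and SD of the 3 libraries of a group beside them; each axis starts at 0. Atp5k, Uqcrh, Sdhd and Ndufa4 are lowest in the 3 libraries with Oxyrase, Uqcrq, Cox7a2l and Ndufs8 are highest there, and Cyc1 is lowest in pyruvate.

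Set against NaCl, lactate with Oxyrase gave 36 lower and 6 higher subunit transcripts (42 of 80; background 50.8% of all genes tested, 26.5% higher and 24.3% lower, and 63.3% of those with at least 10 CPM, 31.4% higher and 31.8% lower). This comparison shares its Oxyrase libraries with the one above, so its calls are no independent evidence. Of the 7 core subunits of complex I, 2 fell and 1 rose here. Ndufs1 was among these falls, with a call that held in 9 of 11 alternatives. The largest falls were again in Atp5k (-0.63 ± 0.09), followed by Ndufb2 (-0.61 ± 0.12), Atp5mpl (-0.56 ± 0.06), Atp5e (-0.55 ± 0.11) and Sdhd (-0.50 ± 0.05). Sdhb, the iron-sulphur subunit of complex II, also passed here (-0.23 ± 0.05, edgeR adjusted p = 0.000461). It was at 102, 104 and 97.9 CPM in NaCl, 89.6, 92.2 and 96.6 in lactate and 83.3, 86.9 and 90.0 with Oxyrase. Ndufb9 (0.24 ± 0.05), an accessory subunit of complex I, and Uqcrb (0.24 ± 0.06), of complex III, rose against NaCl, and Cycs rose by 0.21 ± 0.05 (edgeR adjusted p = 0.00229).

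Pyruvate against NaCl lowered 10 of the 80 subunit transcripts and raised 0, against 9.4% of all genes tested higher and 6.28% lower (15.7% in all; among genes with at least 10 CPM 21.3%, with 12.3% higher and 8.94% lower). At an unadjusted p under 0.05, 26 were lower and 0 higher, and DESeq2 called 13 lower and 0 higher. Estimates were below 0 for 73 of the 80, with a median log2 fold change of -0.09, beside 0.00 over all genes. The 10 that passed spread over the complexes: Ndufa3, Ndufb5 and Ndufa4 by symbol in complex I, Sdhb in II, Cyc1, Uqcr10 and Uqcrc1 in III, Cox6a1 and Cox4i1 in IV, and Atp5g1 in V. The count rested on few libraries: it was 2 without pyruvate 2, the lowest pyruvate library in the sums of complexes I to V, 3 without NaCl 2, 5 without NaCl 1 and 6 without pyruvate 1. Cyc1 and Sdhb were the calls that held in all 11 alternatives.

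Cyc1, the haem protein of complex III that hands electrons to cytochrome c, was at 116, 127 and 116 CPM in NaCl and 106, 97.0 and 104 CPM in pyruvate. The pyruvate libraries were below the 9 others, with a log2 fold change of -0.23 ± 0.05 against NaCl (edgeR adjusted p = 0.00483). Sdhb was at 92.6, 83.7 and 87.6 CPM in pyruvate, below the 3 NaCl libraries (-0.21 ± 0.04, edgeR adjusted p = 0.00483) and overlapping with the libraries with Oxyrase. Cox6a1, the ubiquitous form of a complex IV subunit, had 105, 106 and 103 CPM in NaCl and 90.4, 81.9 and 93.7 in pyruvate (-0.24 ± 0.06, edgeR adjusted p = 0.0106), a call lost without pyruvate 2. The other falls were those of Ndufa3 (-0.27 ± 0.08), Uqcr10 (-0.23 ± 0.07), Ndufb5 (-0.21 ± 0.07), Atp5g1 (-0.16 ± 0.05), Ndufa4 (-0.15 ± 0.04), Cox4i1 (-0.14 ± 0.04) and Uqcrc1 (-0.13 ± 0.04), which held in 5 to 9 of 11 alternatives. Of the 8 T cell markers, 6 (75%) were lower in pyruvate than in NaCl, beside 6.28% of all genes tested, and Cd5 (0.11, edgeR adjusted p = 0.0519) and Cd3e (0.11, edgeR adjusted p = 0.164) did not pass.

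The pyruvate and the Oxyrase comparison (against NaCl and against lactate) share no library. Of the 10 transcripts lower under pyruvate, 4 (40%) were also lower with Oxyrase: Ndufa3, Ndufa4, Ndufb5 and Uqcr10, which is 12.1% of the 33 lower with Oxyrase. Over all 80 genes, 41.25% were lower with Oxyrase and 12.5% lower under pyruvate, so this overlap was near the base shares. Cox4i1 fell under pyruvate and rose with Oxyrase. Cyc1 and Sdhb, the steadiest falls under pyruvate, did not pass with Oxyrase, and Atp5k, Uqcrh and Sdhd, among the largest falls with Oxyrase, did not pass under pyruvate. The differences between these effects were not tested. Across the 80 genes the log2 fold changes of both comparisons had Pearson's r = 0.30 and Spearman's rho = 0.37, beside 0.34 and 0.36 across all genes, as a description over genes that share libraries.

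Lactate against NaCl moved few subunit transcripts. Ndufb10 (0.18 ± 0.05, edgeR adjusted p = 0.0451) and Ndufb9 (0.16 ± 0.05, edgeR adjusted p = 0.0497), both accessory subunits of the membrane arm of complex I, rose and 0 fell, against 7.73% of all genes tested (3.61% higher and 4.12% lower; with at least 10 CPM 10.6%, 4.85% higher and 5.72% lower). At an unadjusted p under 0.05 there were 8 higher and 7 lower, and DESeq2 called 2 higher and 0 lower. Ndufb9 was at 40.2, 40.3 and 43.2 CPM in NaCl and 46.4, 46.5 and 44.6 in lactate, so the groups did not overlap, but its call held in 2 of 11 alternatives and that of Ndufb10 in 4. The median over the 80 genes was -0.01. Of the catalytic subunits, Atp5b had 0.01 (95% interval -0.06 to 0.07), Atp5a1 -0.02 (-0.09 to 0.05) and Sdha 0.00 (-0.07 to 0.06).

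Pyruvate and lactate, a pair linked by a single oxidation, were compared directly at 20 mM. In pyruvate 14 subunit transcripts were lower and 0 higher than in lactate, against 24% of all genes tested (13% higher and 10.9% lower; with at least 10 CPM 32.1%, 16.9% higher and 15.2% lower). At an unadjusted p under 0.05, 29 were lower and 1 higher, and DESeq2 called 18 lower and 0 higher. Complex I held 10 of the 14, all of them accessory subunits (10 of 30, and 0 of 7 core subunits). Of these 14, Cyc1 had the largest difference, at 127, 122 and 123 CPM in lactate beside the pyruvate values above (-0.28 ± 0.05, edgeR adjusted p = 0.000702). Ndufb7 was at 46.2, 50.3 and 47.9 CPM in lactate and 40.3, 37.4 and 42.8 in pyruvate (-0.26 ± 0.05, edgeR adjusted p = 0.00145). Ndufb9 was at 39.4, 37.8 and 39.4 CPM in pyruvate (-0.24 ± 0.05), and Ndufv3, which sits beside the NADH site, fell by 0.23 ± 0.06. These 4 calls held in all 11 alternatives. The count was 5 without pyruvate 2, 8 without lactate 2 and 9 without lactate 3.

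Over the 5 comparisons, 26 of the 80 genes passed in none, 12 in 1, 32 in 2, 9 in 3 and 1 in 4. Most of these comparisons share libraries, as the 2 with Oxyrase do, so passing in 2 is no independent repeat. The same count over all genes tested was not computed. Genes below the CPM minimum or under another isoform were counted separately. Cox4i2, the isoform of subunit 4 known to be induced by low oxygen, had 27, 26 and 16 estimated counts in the libraries with Oxyrase and 0 counts in all 6 NaCl and lactate libraries, with 0, 0 and 6 in pyruvate. Pooled over the group and set against a floor of 3 counts in the lactate group, it was at least 26.7-fold higher with Oxyrase than in lactate, and at least 23.2-fold higher than in NaCl. Its level stayed low, at 0.979, 0.888 and 0.478 CPM, and its partner isoform Cox4i1 was at 225, 218 and 232 CPM in the same libraries. The muscle isoforms Cox6a2 (32, 27 and 51 counts with Oxyrase, 6 to 19 in lactate, 3 to 17 in NaCl) and Cox7a1 (17, 20 and 21 with Oxyrase, 2 to 12 in lactate, 5 to 12 in NaCl) were also highest with Oxyrase, with groups that did not overlap. Ndufa4l2, the other form of Ndufa4, had 0 to 4 counts in every library, too few for a fold. Named pseudogene copies of Uqcrh, Atp5k, Atp5l and Atp5c1 had 0 to 4 counts, so few reads were assigned to them. Ndufb1-ps, in contrast, had 761 to 1389 counts. Ndufb4c, which is counted among the 80, had a mean of 24.2 CPM beside 10.9 CPM for Ndufb4. How reads were divided between subunit genes and genes of like sequence, or unnamed copies elsewhere in the genome, was not analysed here.

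The genes that build and regulate the chain were described from lists of known members. Of 62 assembly factors 59 were tested. With Oxyrase added to lactate 6 rose (10.2%) and 12 fell (20.3%), beside 26.1% and 23.6% of all genes tested. Ttc19, a complex III factor, rose by 0.51 ± 0.06 (edgeR adjusted p = 1.56e-06), and Cox15 (0.26 ± 0.04) and Bcs1l (0.27 ± 0.08) also rose. Cox11 (-0.37 ± 0.08), Uqcc1 (-0.35 ± 0.05) and Acad9 (-0.30 ± 0.04) fell most. Pyruvate against NaCl gave 4 higher and 4 lower (6.78% each, beside 9.4% and 6.28% of all genes tested), with Ttc19 higher (0.27 ± 0.06) and the copper chaperone Cox17 lower (-0.19 ± 0.04). Lactate against NaCl gave 0 in either direction (edgeR; 7 higher and 4 lower at an unadjusted p under 0.05). The medians were -0.03, 0.01 and -0.02 for pyruvate, lactate and Oxyrase, beside 0.00 over all genes.

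Of 23 transcription and biogenesis factors 22 were tested, and Oxyrase raised 4 (18.2%) and lowered 5 (22.7%), beside 26.1% and 23.6% of all genes tested, with a median log2 fold change of -0.04. Nrf1, whose motif is marked in the sequences above, was at 78.0, 74.9 and 76.7 CPM in lactate and 59.8, 54.6 and 62.3 with Oxyrase (-0.38 ± 0.05, edgeR adjusted p = 3.34e-06). A link between its level and subunit genes with its motif was not tested. Gabpa, the DNA-binding part of the ETS factor GABP, was at 109, 119 and 112 CPM in lactate and 131, 128 and 124 with Oxyrase (0.17 ± 0.04, edgeR adjusted p = 0.00353), and its partner Gabpb1 rose by 0.29 ± 0.05. The coactivators fell: Ppargc1b by 0.79 ± 0.11 and Pprc1 by 0.22 ± 0.04. Tfam, which packages and transcribes mitochondrial DNA, had 0.05 ± 0.04 (edgeR adjusted p = 0.392), and Ppargc1a was at 0.061 CPM or less in all libraries. Pyruvate lowered Pprc1 (-0.13 ± 0.04), and the fall of Nrf1 missed the threshold (-0.13 ± 0.05, edgeR adjusted p = 0.0641).

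Of the 13 mitochondrially encoded subunits, 1 rose and 1 fell with Oxyrase, beside 26.1% higher and 23.6% lower among all genes tested. mt-Co3 rose (1.03 ± 0.33, edgeR adjusted p = 0.0147), with 56.5, 189 and 166 CPM in lactate and 442, 189 and 214 CPM with Oxyrase. Its first library in each group stood far from the other two, and the value without them was not computed. mt-Cytb was lower in pyruvate (-0.30 ± 0.06) and in lactate (-0.32 ± 0.06) than in NaCl. The protocol selects polyadenylated RNA, so transcripts of mitochondrial DNA are seen only as far as they carry such tails.

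Among genes by which low oxygen acts on mitochondria, 7 of 17 tested rose with Oxyrase (41.2%) and 3 fell (17.6%), beside 26.1% and 23.6% of all genes tested, with a median log2 fold change of 0.10. Cox4i2 is left out of this count, because it passed the filter on low counts only through the libraries with Oxyrase. Lonp1, the matrix protease known to degrade Cox4i1 protein under low oxygen, was at 295, 288 and 278 CPM in lactate and 605, 523 and 558 with Oxyrase (0.97 ± 0.05, edgeR adjusted p = 4.11e-11). Bnip3, a mitophagy receptor, rose by 0.65 ± 0.08 and also under pyruvate against NaCl by 0.51 ± 0.09. Pdk1, the kinase that holds pyruvate back from mitochondria, fell by 0.34 ± 0.05, Hif1a fell by 0.51 ± 0.04, and Higd1a had 0.03 ± 0.06 (edgeR adjusted p = 0.759). Of 21 genes of ubiquinone synthesis and electron entry, 6 rose (28.6%) and 5 fell (23.8%) with Oxyrase, shares near those of all genes tested. The rises included Sqor (0.71 ± 0.18), Coq10b (0.49 ± 0.05) and Gpd2 (0.38 ± 0.04), and the largest fall was that of Pdss1 (-0.38 ± 0.05), an enzyme for the ubiquinone tail.

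Accessible chromatin was read at the start sites of 66 of the 80 genes, those with an entry in the RefSeq promoter table, through 68 peaks within 1 kb; the other 14 were not analysed here. The 14 include Cyc1, Uqcrq, Cox4i1 and Atp5mpl. In the main scaling, TMM over all 75802 peaks, lactate against NaCl lowered 20 of the 68 peaks and raised 0, Oxyrase added to lactate lowered 20 and raised 1, and lactate with Oxyrase against NaCl lowered 46 and raised 0. Of 13552 peaks at gene ends of all genes, 17.9% passed for lactate against NaCl (0.391% higher and 17.5% lower), 26.9% for Oxyrase added to lactate (4.69% higher and 22.2% lower) and 53.6% for lactate with Oxyrase against NaCl (8.01% higher and 45.6% lower). Pyruvate against NaCl gave 0 in edgeR, in DESeq2 and at an unadjusted p under 0.05 (background 0%). Pyruvate against lactate gave 24 higher and 1 lower, beside 20.7% higher and 1.9% lower among all gene-end peaks (22.6% in all).

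These counts depend on the scaling, because the median of all gene-end peaks itself moved: by -0.11 for lactate against NaCl, -0.12 for Oxyrase added to lactate, -0.22 for lactate with Oxyrase against NaCl and 0.10 for pyruvate against lactate. The medians of the 68 peaks were -0.19, -0.17, -0.37 and 0.17. When libraries were scaled on gene-end peaks instead, the counts were 11 lower and 2 higher, 9 lower and 1 higher, 29 lower and 10 higher, and 17 higher and 4 lower, in the same order. The backgrounds were then 13.5% (4.01% higher and 9.5% lower), 20.8% (10.2% and 10.6%), 50.7% (25.6% and 25.1%) and 22.2% (12.8% and 9.39%). All 11, 9 and 29 lower peaks were among those lower in the main scaling, and none of the 10 higher ones for lactate with Oxyrase against NaCl had passed there. Lactate against NaCl also rested on single libraries: the count of 20 was 5 without NaCl 2, 6 without lactate 3, 8 without NaCl 1, 12 without lactate 2 and 34 without NaCl 3. For pyruvate against lactate the count of 25 was 14 without lactate 3, 16 without pyruvate 1 and 16 without pyruvate 2.

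The Ndufa7 peak (chr17:33824288-33824887), at the start of an accessory subunit of complex I, fell most. Its TMM-scaled CPM was 23.9, 23.6 and 17.4 in NaCl, 21.6, 22.9 and 18.4 in pyruvate, 14.7, 15.4 and 12.2 in lactate and 10.0, 10.1 and 9.28 with Oxyrase, so neither lactate group overlapped with NaCl or pyruvate, nor with each other. Lactate with Oxyrase against NaCl had a log2 fold change of -1.13 ± 0.11 (edgeR adjusted p = 7.49e-11) and -0.89 ± 0.11 under gene-end scaling. Lactate against NaCl had -0.62 ± 0.11 (edgeR adjusted p = 0.000507; -0.48 under gene-end scaling), and Oxyrase added to lactate -0.52 ± 0.11 (edgeR adjusted p = 0.000552; -0.40 under gene-end scaling). The peak also lies at an end of Rps28, so it cannot be given to Ndufa7 alone. The Ndufa7 transcript itself passed in no comparison, at 38.5 to 42.6 CPM in NaCl and 36.4 to 42.2 with Oxyrase.

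Other members followed the same order of groups. The Ndufv1 peak (chr19:4012472-4013296), at the gene for the NADH-binding subunit, was at 58.0, 55.7 and 40.4 CPM in NaCl, 53.7, 54.5 and 45.7 in pyruvate, 39.8, 33.5 and 31.0 in lactate and 27.7, 25.3 and 22.9 with Oxyrase. It fell by 1.02 ± 0.11 on the log2 scale in lactate with Oxyrase against NaCl (edgeR adjusted p = 3.61e-10), and the Ndufv1 transcript passed in no comparison. The Cox6a1 peak (chr5:115348546-115349408) was at 35.4, 40.9 and 28.4 in NaCl and 19.6, 18.6 and 18.3 with Oxyrase (-0.89 ± 0.10, edgeR adjusted p = 1.30e-09). The Cox5a peak was at 38.5, 41.2 and 35.7 in pyruvate and 27.4, 24.5 and 24.2 in lactate, the difference between those groups with the smallest p (0.60 ± 0.10, edgeR adjusted p = 0.000147). NaCl 3 was the lowest NaCl library at each of these 4 peaks.

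Among the genes whose transcripts fell with Oxyrase, the peaks of some fell and those of others did not pass. The Atp5k peak, which also lies at an end of Gm34319, was at 26.7, 24.5 and 27.5 CPM in lactate and 23.9, 26.0 and 22.9 with Oxyrase (-0.11 ± 0.09, edgeR adjusted p = 0.358), and the Ndufa4 peak, also at an end of Phf14, had 0.07 ± 0.09 (edgeR adjusted p = 0.598). The Ndufa6 peak fell by 0.36 ± 0.09 (edgeR adjusted p = 0.00322), and the Uqcr11 peak had -0.25 ± 0.10 (edgeR adjusted p = 0.0595). The Sdhd peak, which also lies at an end of Timm8b, fell by 0.25 ± 0.09 (edgeR adjusted p = 0.0305), a call lost under gene-end scaling (-0.13 ± 0.08). The rise among the 68 was that of Cox6b2, the testis form of a complex IV subunit, from 23.2, 23.2 and 23.6 to 29.2, 30.4 and 30.3 CPM (0.36 ± 0.09, edgeR adjusted p = 0.00143), while its transcript stayed at 0.741 to 1.89 CPM in both groups. With Oxyrase added to lactate, 9 of the 31 genes with a start-site entry and a lower transcript (29.0%) also had a lower peak, beside 19 of all 66 genes (28.8%). The 9 are 47.4% of the 19 genes with a lower peak, beside 31 of 66 (47%) with a lower transcript, so the overlap was near the base shares. Across the 66 genes the log2 fold changes of transcript and peak had Pearson's r between -0.12 and 0.05 in the 5 comparisons, as a description across genes.

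**Figure D4:**
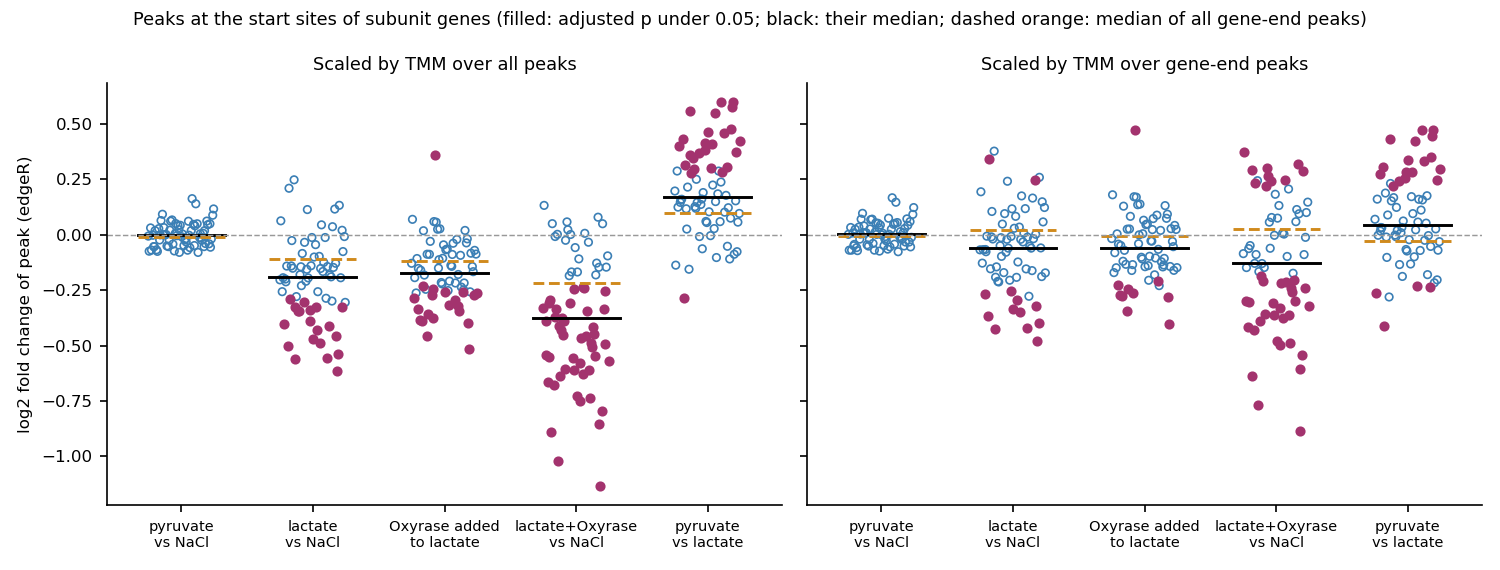
Log2 fold change of the 68 peaks at subunit start sites in 5 comparisons (points; filled: adjusted p under 0.05 in edgeR), with libraries scaled on all peaks (left) or on gene-end peaks (right); the black line is their median and the dashed line the median of all gene-end peaks. In the left panel the lactate comparisons lie mostly below 0 and pyruvate against lactate above, and in the right panel all gene-end medians are near 0 and the spread of the subunit peaks remains.

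**Figure D5:**
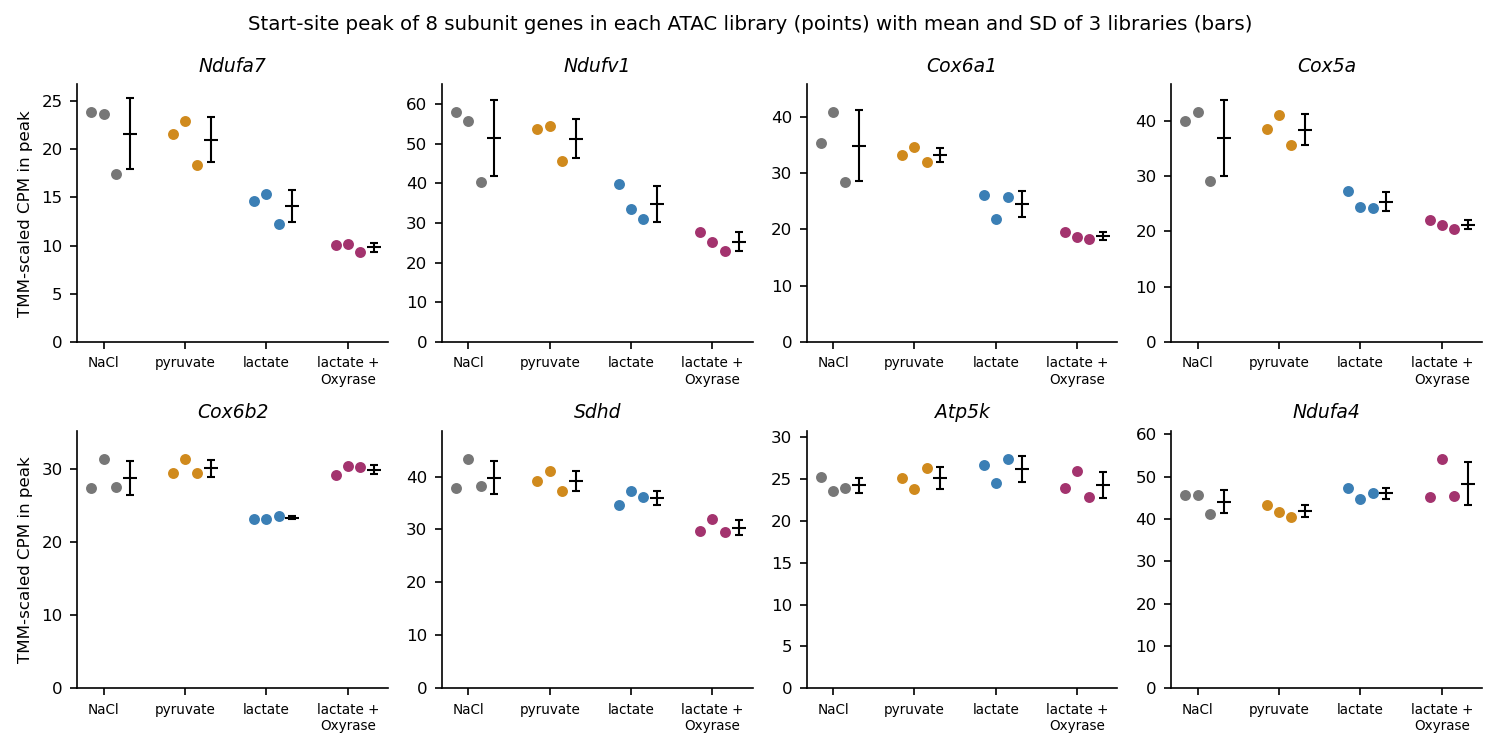
TMM-scaled CPM of the start-site peaks of 8 subunit genes in each ATAC library (points), with the mean and SD of the 3 libraries of a group; each axis starts at 0. Ndufa7, Ndufv1, Cox6a1 and Cox5a fall from NaCl and pyruvate to lactate and further with Oxyrase, Cox6b2 is lowest in lactate, and Atp5k overlaps between groups. For Ndufa4 the pyruvate libraries lie below those of lactate and of lactate with Oxyrase, and the other groups overlap.

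The promoter windows of the genes, 250 bases before to 50 after each start site, were searched on both strands. Of 71 windows of the 66 genes 25.4% held the NRF1 letters, beside 9.82% of the 12928 windows of all genes tested and 4.60% of all 32851 windows. The YY1 letters AANATGGC were in 23.9% (8.30% and 6.05%), the ERR letters AAGGTCA in 11.3% (3.22% and 4.72%) and the ETS letters CCGGAAG in 22.5% (17.6% and 8.86%). The core hypoxia response letters ACGTG were in 25.4%, beside 25.6% of the windows of genes tested. GGGCGG, bound by SP factors, was in 40.9% (61.0% and 35.7%) and CCAAT in 42.3% (38.0% and 37.4%). Matches can overlap where a motif reads alike on both strands, and a match says only that the letters are there.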

How the data were processed

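The data comprise 12 RNA-seq and 12 ATAC-seq libraries, 3 in each of 4 groups. The authors deposited counts per gene under the name of adjusted counts. For the estimated counts the submitters' processing notes give RSEM 1.2.12 and Bowtie2 2.2.0. The authors also deposited a read count per ATAC peak (mm10), for which the notes name BWA, Picard, MACS2 and bedtools. Of the non-zero RNA values 99.2% are whole within 1e-09. Of 460 genes with a value above 1 that is not whole, 448 are 0 in all 4 libraries of 1 replicate number. What was adjusted for, and by which step, is not given in the sources used here. An adjustment by replicate number could make the spread between libraries, and with it the p-values, too small. All values of the 80 genes are whole.

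Estimated counts were rounded and tested with edgeR 4.0.16 (quasi-likelihood, filterByExpr, TMM, 12 libraries in 1 fit per assay, R 4.3.3), with Benjamini-Hochberg adjustment over all 14749 genes or 75802 peaks tested and a threshold of 0.05. Each SE was obtained from the fold change on the log2 scale and the F statistic, and 95% intervals come from that same fit. The biological coefficient of variation was 5.05% for RNA and 9.70% for ATAC. A peak belonged to a gene if it lay within 1 kb of its RefSeq start site. A count of 3 was 0.0757 to 0.115 CPM in the RNA libraries, so genes near the minimum of 1 CPM rest on few counts, and floors cover counting error only.

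Genes were named if they were always to be named (isoform pairs, subunit c, Sdh genes, catalytic and core subunits) or had the largest changes among those called in a complex, at most 4 each way. Genes outside the rule were chosen after their values were seen. The members and lists were chosen with earlier results of these data known. The alternatives were DESeq2 1.42.0, RLE scaling, no filter, only the 2 groups compared, a replicate block, leaving out each library and, for peaks, scaling on gene-end peaks and 2.5 kb. The code was tested on simulated data. The values of 1 gene that the naming rule covers are not reported here.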

Additional observations from a re-analysis of the deposited data

How the results depend on the processing

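No call of a named gene, or of the peak with the smallest p in a comparison, turned direction under any alternative run. The directions of the other single calls were not compared. Of the calls of these named genes and peaks over their alternatives, 718 held and 107 were lost. The number of subunit transcripts called for pyruvate against NaCl (10) was 19 with no filter, and 2 to 13 when single libraries were left out. For lactate against NaCl (2) it was 1 with RLE scaling, 5 with no filter, 0 in a fit of only the 2 groups, and 0 to 5 when single libraries were left out. For pyruvate against lactate (14) it was 5 to 14 when single libraries were left out. In such runs it was 29 to 38 for Oxyrase added to lactate (39) and 36 to 40 for lactate with Oxyrase against NaCl (42). With libraries scaled on gene-end peaks, the start-site peaks called fell from 20 to 13 for lactate against NaCl and from 21 to 10 for Oxyrase added to lactate. When single ATAC libraries were left out these counts were 5 to 34 and 14 to 21, and they were 39 to 49 for lactate with Oxyrase against NaCl and 14 to 24 for pyruvate against lactate. The cause of these shifts was not tested, except that leaving out a library leaves fewer samples.

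The replicate numbers were not taken as pairs. Deviations of same-numbered libraries correlated between -0.21 and -0.08 for RNA (median -0.14; -0.04 to 0.16 for different numbers) and between -0.15 and 0.17 for ATAC (-0.21 to 0.17). Since some deposited RNA values appear tied to the replicate number, a lack of pairing cannot be read from the RNA values. With a replicate block the RNA counts were 6 for pyruvate against NaCl, 0 for lactate against NaCl and 9 for pyruvate against lactate. A correction for GC content was not run.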
